A study of Mus musculus with 6 samples.

Results

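The genes described here are 10 amino acid transporters of the plasma membrane, taken by gene symbol from a table of FPKM values (fragments per kilobase of transcript scaled to library size) with 17001 rows. All 10 had a row and are listed below by what they carry. The values come from bulk RNA of preosteoblasts, the precursors of bone-forming osteoblasts, which were isolated from the skull vault of 3-day-old mice and cultured in α-MEM with 10% FBS. The 6 libraries are 3 of control cells, from Nell2fx/fx mice that carry the floxed Nell2 alleles without Cre, and 3 labelled cKO, from Col1-cre;Nell2fx/fx mice, in which a Col1a1 promoter drives Cre in cells of the osteoblast lineage. Both groups carry the floxed alleles, and there was no group with Cre alone. The comparison asks how gene expression differs in preosteoblasts from which NELL2 was to be deleted. Nothing in the labels says whether the 3 libraries of a group came from separate pups or cultures, so each p-value measures the spread between these libraries.

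Amino acid carriers bring into the cell what protein synthesis, glutathione synthesis and one-carbon metabolism consume. Osteoblasts secrete large amounts of collagen, which is rich in glycine and proline, and are known to depend on amino acid uptake for matrix production. Many genes of this kind are known targets of ATF4, a transcription factor whose translation increases when amino acids run short and which is itself required for osteoblast function. Some of the carriers work alone, whereas the heteromeric ones consist of a heavy chain, which takes the complex to the membrane, and a light chain, which carries the amino acid.

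The targeted gene and the cell type were examined first. Nell2 (chromosome 15, from 95075230 to 95528559 on the minus strand of GRCm38 in GENCODE release M21) had an FPKM of 3.17, 2.59 and 1.88 in controls 1, 2 and 3 and of 5.64, 1.61 and 5.74 in the libraries labelled cKO. It was thus not lower in the libraries labelled cKO (log2 fold change 0.48, standard error 0.37, adjusted p = 0.591 in limma), although reads of the floxed part and of the rest of the gene share 1 value. Its log2 fold change was 0.26 without cKO replicate 1, 0.93 without cKO replicate 2 and 0.25 without cKO replicate 3. All directions below follow the labels, and whether any library carries the wrong label was not tested. The study also assessed the deletion by other assays, which were not analysed here. Markers of the osteoblast lineage were abundant, with Col1a1, the main collagen of bone, at 8300 ± 264 (SD, n = 3) in control and 8246 ± 145 (SD, n = 3) in cKO libraries. Of the 8 lineage markers, 3 were lower in cKO at an unadjusted p under 0.05, against 7.76% of all tested rows. These were Sp7, the osterix gene (log2 fold change -0.48), Alpl, alkaline phosphatase (-0.45), and Msx2, a homeobox gene (-0.62), and in each the groups did not overlap, as in 11.8% of all tested rows with cKO lower. Of the other 5 lineage markers 2 had a higher and 3 a lower mean log2 value in cKO, up to 0.34 for Dlx5.

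The library labelled cKO replicate 1 stood apart from the other 2 of its group. Over the 11590 rows tested, its Pearson correlation was 0.993 with control replicate 3, 0.988 with cKO replicate 2 and 0.990 with cKO replicate 3. On the first principal component, which held 48.3% of the variance, control replicates 1 and 2 lay at -12.9 and -16.6. Control replicate 3 lay apart from them at -0.83. The library labelled cKO replicate 1 lay at -4.23, beside control replicate 3 and far from cKO replicates 2 and 3 at 18.4 and 16.1. The transporter results are therefore given with and without this library. Since it was singled out by its expression, which lay nearest the controls, a fit without it favours differences between the groups, and its adjusted p-values are given as a description of how much each value turns on this library.

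The mean FPKM of all 10 transporters was higher in the libraries labelled cKO than in control, by 1.03-fold for Slc38a2 to 3.01-fold for Slc7a3. None of them passed an adjusted p of 0.05 in limma's moderated test of log2(FPKM + 1), and neither did any of the 11590 rows tested (0 genes, 0%). At an unadjusted p under 0.05, 7 of the 10 were higher and 0 lower, against 5.37% of all tested rows that were higher at this threshold. In 4 of the 10, namely Slc3a2, Slc7a1, Slc1a4 and Slc6a9, every cKO value lay above every control value, which 6.51% of the tested rows also showed. The median log2 fold change was 0.55 for the transporters and -0.02 for all tested rows. The transporters, and the lists set beside them below, were chosen with earlier results of these data known. Counts set against the share of all tested rows thus describe these genes and do not test them. Without cKO replicate 1, 6 of the 10 passed the adjusted threshold, all of them higher, against 1.37% of the tested rows, and the median log2 fold change of all 10 was 0.75. Without cKO replicate 2 or cKO replicate 3, 0 of the 9 transporters tested passed it, as did 0 of all rows. In these fits 4 of the 9 were higher at an unadjusted p under 0.05, against 3.38% and 3.51% of all rows. The same count was 4 of 10 without control replicate 1, against 3.23% of all rows, and 4 of 9 without control replicate 2, against 3.94%. It was 7 of 10 without control replicate 3, against 738 of all 11484 rows. In bulk RNA a change in the share of cells that express a gene and a change in the RNA per cell cannot be told apart.

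**Figure D1:**
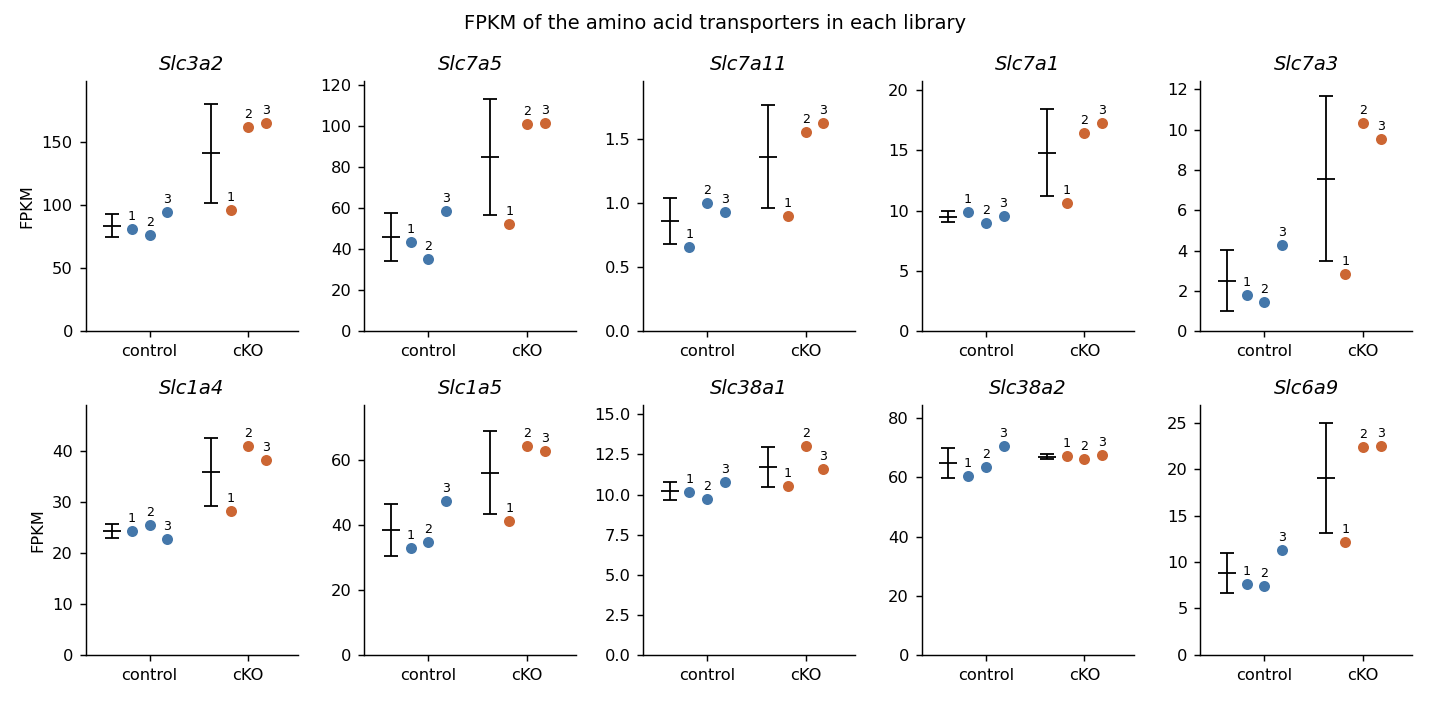
FPKM of each transporter (vertical axis, linear from 0) in the 3 control and 3 cKO libraries, 1 point per library numbered by replicate, with the group mean and SD as a bar to the left of the points. In 9 of the 10 genes cKO replicate 1 is the lowest cKO library and replicates 2 and 3 lie above all controls; Slc38a2 is level across the groups.

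The heteromeric carriers were described first. Slc3a2 (chromosome 19, from 8706882 to 8723369, minus strand) encodes the heavy chain CD98, the partner that several light chains need to reach the membrane. Its FPKM was 80.63, 76.07 and 94.27 in controls 1, 2 and 3 and 95.59, 161.72 and 165 in cKO replicates 1, 2 and 3. The groups did not overlap, but cKO replicate 1 exceeded the highest control by only 1.32 FPKM. The log2 fold change was 0.71 (standard error 0.21, unadjusted p = 0.0132, adjusted p = 0.312 in limma). It was 0.96 without cKO replicate 1 (standard error 0.10, adjusted p = 0.0184).

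Slc7a5 (chromosome 8, from 121881150 to 121907694, minus strand) encodes LAT1, the light chain that imports leucine and other large neutral amino acids in exchange for glutamine. Control replicates 1, 2 and 3 had an FPKM of 43.65, 35.24 and 58.44, and cKO replicates had 52.1, 100.98 and 101.74. The groups overlapped, since control replicate 3 exceeded cKO replicate 1. The mean was 45.8 ± 11.7 (SD, n = 3) in control and 84.9 ± 28.4 (SD, n = 3) in cKO libraries, or 0.84 on the log2 scale (standard error 0.29, adjusted p = 0.323 in limma). The value was 1.16 without cKO replicate 1 (adjusted p = 0.0412), the library that lay inside the control range.

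Slc7a11 (chromosome 3, from 49892526 to 50443614, minus strand) encodes xCT, the light chain that takes up cystine, the precursor of glutathione, in exchange for glutamate. It was the lowest of the 10, with an FPKM of 0.66, 1 and 0.93 in the controls and 0.9, 1.56 and 1.63 in cKO replicates 1, 2 and 3. Only 3 libraries reached an FPKM of 1, the smallest number that the filter on low values allows, and 2 of them were cKO. The log2 fold change was 0.33 (standard error 0.14, unadjusted p = 0.0511, adjusted p = 0.381 in limma), and 0.48 without cKO replicate 1 (adjusted p = 0.0625). At this level the added pseudocount makes the fold change smaller than the 1.58-fold ratio of the means.

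The promoters of the transporters were searched for the composite C/EBP-ATF element through which ATF4 is known to act, in windows from 250 bases before to 50 bases after the annotated start (RefSeq, GRCm38.p6). The letters searched were TGATGNAAN on both strands, and 3.95% of the 32851 promoters in that table hold at least 1 match. Of the transporters, 6 had an entry, with 9 windows, and 2 of the 9 windows held a match, those of Slc7a11 and Slc1a4. Slc3a2, Slc7a1, Slc38a2 and Slc6a9 held none in these windows, and Slc7a3, Slc7a5, Slc1a5 and Slc38a1 had no entry. The Slc7a11 window held 2 matches, 1 on each strand and 9 bases apart, which 0.07% of all promoters equal or exceed in number. They are shown in capitals, 5′ to 3′ on the strand of the gene, and neither overlaps the other.
Slc7a11, chr3:50443564-50443863, minus strand: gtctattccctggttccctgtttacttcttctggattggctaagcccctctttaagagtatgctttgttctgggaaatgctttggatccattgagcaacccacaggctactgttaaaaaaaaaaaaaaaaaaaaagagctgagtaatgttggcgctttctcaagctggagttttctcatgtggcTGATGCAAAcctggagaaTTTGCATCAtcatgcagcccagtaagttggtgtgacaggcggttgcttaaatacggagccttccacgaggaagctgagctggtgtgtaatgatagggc
Slc1a4, chr11:20332664-20332963, minus strand: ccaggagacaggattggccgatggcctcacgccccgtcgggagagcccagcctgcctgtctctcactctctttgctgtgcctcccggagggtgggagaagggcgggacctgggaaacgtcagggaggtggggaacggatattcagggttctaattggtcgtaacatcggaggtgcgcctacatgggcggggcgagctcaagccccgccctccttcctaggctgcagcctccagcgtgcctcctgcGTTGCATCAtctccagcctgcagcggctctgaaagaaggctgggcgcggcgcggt

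The first match of Slc7a11 begins 66 bases before the annotated start and the second 48 bases before it, and that of Slc1a4 begins 5 bases before it. The antioxidant response element, searched as TGACNNNGC on both strands, was present in 12.4% of all promoters and in 4 of the 9 windows, which belong to Slc7a1, Slc38a2 and Slc6a9, the last with 2 of its 3 windows. It was not matched in the Slc7a11 window. A match is a run of letters, and binding was not measured in these cells.

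The cationic amino acid carriers import arginine and lysine. Slc7a1 (chromosome 5, from 148327410 to 148399904, minus strand) encodes CAT1, the widely expressed member. Its FPKM was 9.92, 8.99 and 9.57 in the controls and 10.66, 16.45 and 17.29 in cKO replicates 1, 2 and 3. The 3 controls lay within 1 FPKM of each other and below every cKO library. The log2 fold change was 0.56 (standard error 0.17, unadjusted p = 0.0126, adjusted p = 0.312 in limma), and without cKO replicate 1 it was 0.77 (standard error 0.07, adjusted p = 0.0159).

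Slc7a3 (chromosome X, from 101079210 to 101086020, minus strand) encodes CAT3, known mainly from the brain and from embryonic tissues. It had the highest fold change of the 10, with an FPKM of 1.82, 1.46 and 4.26 in the controls and 2.85, 10.35 and 9.53 in cKO replicates 1, 2 and 3. Control replicate 3 exceeded cKO replicate 1, so the groups overlapped. The log2 fold change was 1.22 (standard error 0.46, adjusted p = 0.348 in limma). Without cKO replicate 1 it was 1.72 (standard error 0.31), with an adjusted p of 0.0496 that lay just under the threshold and became 0.0529 when the rows of the 6-library filter were kept. The ratio of Slc7a3 to Slc7a1 FPKM was 0.183, 0.162 and 0.445 in the controls and 0.267, 0.629 and 0.551 in cKO replicates 1, 2 and 3, so CAT1 remained the more abundant of the pair in all 6 libraries.

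The neutral amino acid exchangers of the SLC1 family carry alanine, serine and cysteine, and Slc1a5 also glutamine. Slc1a4 (chromosome 11, from 20302180 to 20332713, minus strand) encodes ASCT1, and its promoter is the second sequence printed above. Its FPKM was 24.38, 25.51 and 22.78 in the controls and 28.21, 40.88 and 38.31 in cKO replicates 1, 2 and 3. All cKO libraries lay above all controls. Its log2 fold change was 0.53 (standard error 0.14, unadjusted p = 0.00654, adjusted p = 0.312 in limma), and 0.69 without cKO replicate 1 (adjusted p = 0.0199).

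Slc1a5 (chromosome 7, from 16781340 to 16798274, plus strand) encodes ASCT2, a main entry route for glutamine. Control replicates had an FPKM of 33.04, 34.76 and 47.61 and cKO replicates 1, 2 and 3 had 41.37, 64.3 and 62.93. Control replicate 3 again lay above cKO replicate 1. The log2 fold change was 0.53 (standard error 0.20, unadjusted p = 0.0372, adjusted p = 0.358 in limma). Leaving out cKO replicate 1 gave 0.73 with an adjusted p of 0.0749, above the threshold.

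The sodium-coupled carriers of the SLC38 family differed least between the groups. Slc38a1 (from 96571418 to 96642913) and Slc38a2 (from 96687392 to 96699730), which encode SNAT1 and SNAT2, lie next to each other on the minus strand of chromosome 15, 44479 bases apart. Slc38a2 encodes the carrier that cells are known to raise when amino acids are withdrawn. Its FPKM was 60.44, 63.56 and 70.46 in the controls and 67.27, 66.25 and 67.63 in cKO replicates 1, 2 and 3, so the cKO libraries lay inside the range of the controls. Slc38a2 had a log2 fold change of 0.05 with a 95% interval from -0.12 to 0.22 (adjusted p = 0.776 in limma), and 0.05 without cKO replicate 1 as well. It had 0.003 without control replicate 1 and 0.11 without control replicate 3.

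Slc38a1 had an FPKM of 10.13, 9.73 and 10.79 in the controls and of 10.56, 13 and 11.59 in cKO replicates 1, 2 and 3. For Slc38a1 the log2 fold change was 0.18 with a 95% interval from -0.03 to 0.38 (unadjusted p = 0.0792, adjusted p = 0.425 in limma). Leaving out cKO replicate 1 gave 0.24 (adjusted p = 0.167), and leaving out cKO replicate 2 gave 0.11 (adjusted p = 0.711). The FPKM of Slc38a2 was 5.1 to 6.53 times that of Slc38a1 in the 6 libraries.

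Slc6a9 (chromosome 4, from 117834506 to 117875198, plus strand) encodes GLYT1, which takes up glycine with sodium and chloride. Its FPKM was 7.68, 7.43 and 11.27 in the controls and 12.19, 22.43 and 22.45 in cKO replicates 1, 2 and 3. The groups did not overlap, although the highest control and the lowest cKO library differed by less than 1 FPKM. The mean was 8.79 ± 2.15 (SD, n = 3) in control and 19.0 ± 5.92 (SD, n = 3) in cKO libraries, or 1.004 on the log2 scale (standard error 0.25, unadjusted p = 0.00575, adjusted p = 0.312 in limma). This was the smallest unadjusted p of the 10. The value for Slc6a9 without cKO replicate 1 was 1.28 (standard error 0.17, adjusted p = 0.0285).

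**Figure D2:**
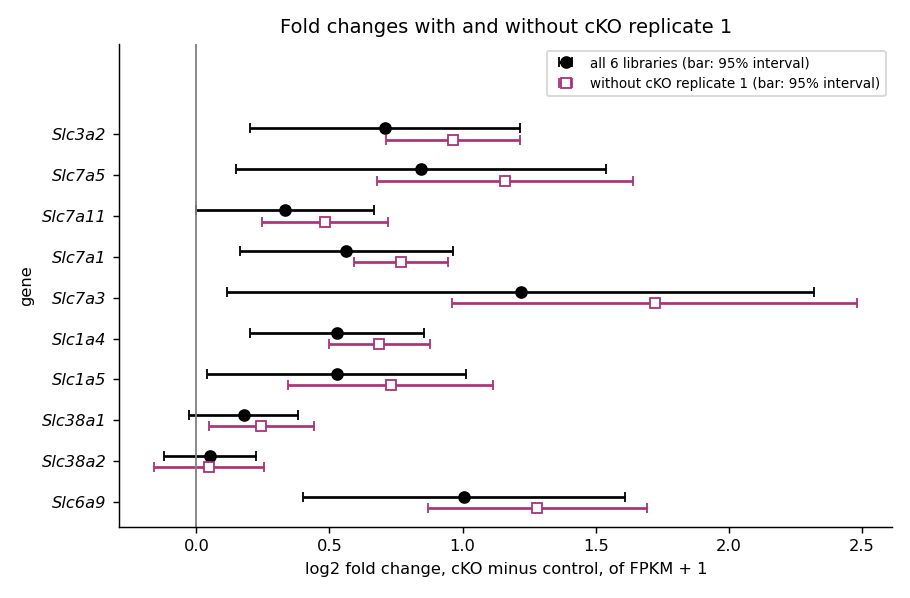
Log2 fold change (cKO minus control, on log2(FPKM + 1)) of each transporter from limma, with its 95% interval, for all 6 libraries (filled circles) and without cKO replicate 1 (open squares). With all 6 libraries the intervals of Slc7a11, Slc38a1 and Slc38a2 include 0; without cKO replicate 1 only that of Slc38a2 does, and no interval is corrected for the number of genes tested.

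Levels per transcript length ordered the transporters as follows, by mean FPKM over the 6 libraries. Slc3a2 came first at 112, followed by Slc38a2 at 65.9, Slc7a5 at 65.4, Slc1a5 at 47.3, Slc1a4 at 30.0, Slc6a9 at 13.9, Slc7a1 at 12.1, Slc38a1 at 10.97, Slc7a3 at 5.05 and Slc7a11 at 1.11. The ranges over the libraries did not overlap between Slc3a2 and Slc38a2, nor between Slc1a4 and Slc6a9. They overlapped for the other 7 neighbouring pairs. Slc38a2 exceeded Slc7a5 in 4 of 6 libraries, the exceptions being cKO replicates 2 and 3, Slc6a9 exceeded Slc7a1 in 4 of 6, and Slc7a1 exceeded Slc38a1 in 3 of 6. In the controls alone the last of these 3 genes came first, with means of 10.2 for Slc38a1, 9.49 for Slc7a1 and 8.79 for Slc6a9. Together the 10 genes summed to an FPKM of 272, 264 and 330 in controls 1, 2 and 3 and to 322, 498 and 498 in cKO replicates 1, 2 and 3.

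In 9 of the 10 genes, all but Slc38a2, cKO replicate 1 was the lowest cKO library, which was the case for 37.2% of the tested rows, and in the same 9 genes cKO replicates 2 and 3 both lay above every control. Both features together were found in 15% of the tested rows. In 6 of the 10 cKO replicate 1 lay inside the range of the controls, and in the other 4 above it. Among controls, replicate 3 was the highest in 7 of the 10. The median over the 10 genes of log2(FPKM + 1), taken relative to each gene's mean, was -0.36, -0.37 and -0.08 in controls 1, 2 and 3 and -0.13, 0.47 and 0.49 in cKO replicates. Control replicate 3 and cKO replicate 1 thus lay side by side, and cKO replicates 2 and 3 apart from the other 4.

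**Figure D3:**
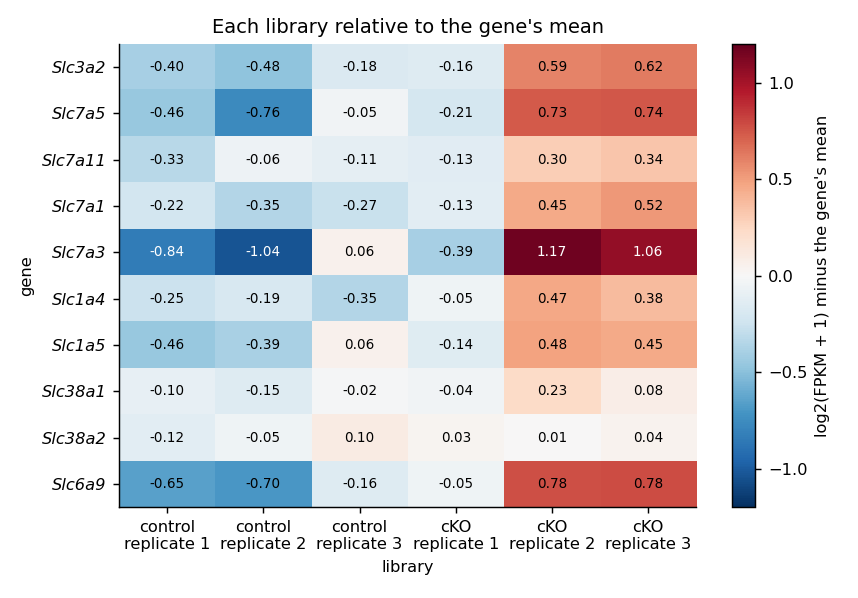
Each transporter (rows) in each library (columns) as log2(FPKM + 1) minus the gene's mean over the 6 libraries, printed in each field and coloured from blue (below the mean) to red (above it). Slc7a3 spans the widest range, from -1.04 in control replicate 2 to 1.17 in cKO replicate 2, and Slc38a2 the narrowest, from -0.12 to 0.10.

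The heavy chain was set beside the light chains known to pair with it, Slc7a5, Slc7a6, Slc7a7, Slc7a8, Slc7a10 and Slc7a11. The FPKM of these 6 summed to 72.7, 66.1 and 87.5 in the controls and to 84.1, 131 and 135 in cKO replicates 1, 2 and 3. The ratio of Slc3a2 to this sum was 1.11, 1.15 and 1.08 in control and 1.14, 1.24 and 1.22 in cKO replicates, so the heavy chain exceeded the light chain sum in all 6 libraries, by most in cKO replicates 2 and 3. Slc7a5 made up 60.1%, 53.3% and 66.8% of the light chain sum in the controls and 62.0%, 77.1% and 75.3% in cKO replicates. Slc7a6, the y+LAT2 light chain, was level, with 19.06, 21.84 and 19.05 in control and 20.12, 18.03 and 18.54 in cKO replicates (log2 fold change -0.08, standard error 0.08, adjusted p = 0.694 in limma).

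**Figure D4:**
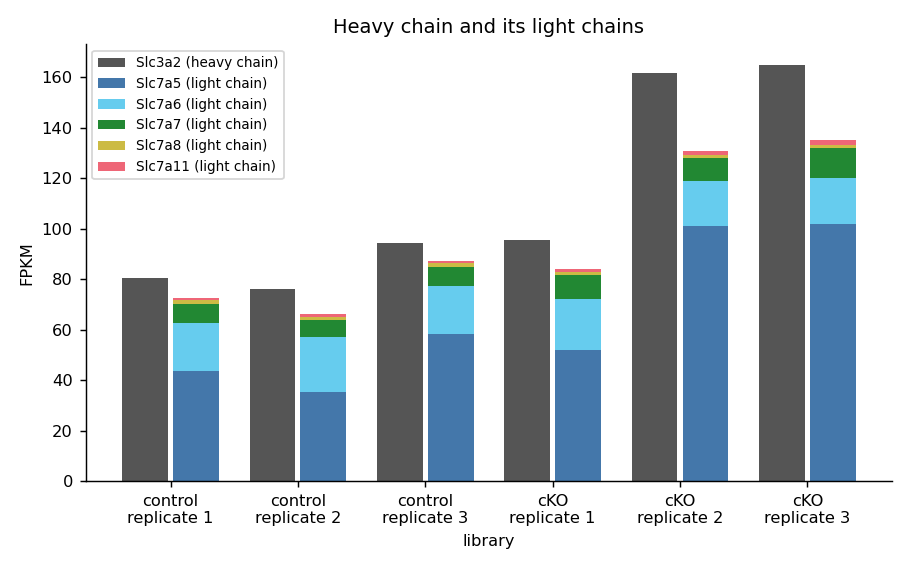
FPKM (vertical axis) of the heavy chain Slc3a2 (grey bar) and of the light chains stacked beside it in each library; Slc7a10, at most 0.15 FPKM, is not drawn. Slc3a2 and the Slc7a5 part are highest in cKO replicates 2 and 3, while Slc7a6 stays between 18.03 and 21.84.

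Other amino acid carriers showed no common direction. Of 35 further plasma membrane carriers listed, 30 had a row here and 13 passed the filter on low values, while 15 stayed below an FPKM of 1 in every library. Of the 13, 5 had a higher and 8 a lower mean log2 value in cKO, and 0 passed the adjusted threshold. At an unadjusted p under 0.05 2 were higher and 1 lower, against 5.37% and 7.76% of all tested rows. The median log2 fold change of the 13 was -0.04. The 2 higher ones were Slc7a7, the y+LAT1 light chain (log2 fold change 0.42, standard error 0.10, adjusted p = 0.312 in limma), and Slc7a2, the cationic carrier CAT2 (0.60, standard error 0.18, adjusted p = 0.312). Slc7a7 did not follow this library order of 9 of the 10 transporters, with 7.62, 6.72 and 7.34 in control and 9.33, 9.14 and 11.75 in cKO replicates, whereas Slc7a2 did, with 4.19, 3.86 and 5.3 in control and 5.25, 8.65 and 8.08 in cKO replicates 1, 2 and 3. Slc43a2, a carrier of large neutral amino acids, had 2.52, 2.27 and 1.89 in control and 1.72, 1.58 and 1.29 in cKO replicates (log2 fold change -0.35, standard error 0.10, adjusted p = 0.312). The most abundant of the list was Slc6a6, the taurine carrier, at 31.9 ± 1.89 (SD, n = 3) in control and 29.5 ± 0.65 (SD, n = 3) in cKO libraries. Without cKO replicate 1, Slc7a2 alone of these 13 passed the adjusted threshold (adjusted p = 0.0349), against 1.37% of all tested rows that were higher. The log2 fold changes of Slc7a7 and Slc43a2 were then 0.47 and -0.40, and the median of the 13 was -0.05.

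Carriers of the inner compartments were described next. Of 8 lysosomal carriers 7 were tested, 5 with a higher and 2 with a lower mean log2 value in cKO (median log2 fold change 0.03). Of these 7, 0 were past the adjusted threshold and 1 was higher at an unadjusted p under 0.05, against 5.37% of all tested rows. The groups did not overlap in 1 with cKO higher and 2 with cKO lower, against 6.51% and 11.8% of all tested rows. The library order of 9 of the 10 transporters was found in 3 of the 7, against 15% of all tested rows. The gene higher at an unadjusted p under 0.05 was Ctns, the exporter of cystine from lysosomes. It had 10.22, 10.48 and 10.46 in control and 11.01, 13.3 and 12.8 in cKO replicates (log2 fold change 0.23, standard error 0.08, adjusted p = 0.327 in limma). The most abundant was Slc38a7, a lysosomal glutamine carrier, at 10.08, 10.36 and 11.11 in control and 10.51, 13.74 and 13.42 in cKO replicates (log2 fold change 0.23, adjusted p = 0.412), and Slc36a1, a proton-coupled carrier, had a log2 fold change of -0.16 (adjusted p = 0.38). Of 12 mitochondrial carriers 10 were tested, 2 with a higher and 8 with a lower mean log2 value in cKO, 0 of them past either threshold and 0 with that library order, with a median log2 fold change of -0.06. Their smallest p belonged to Sfxn1, the mitochondrial serine carrier, at 26.65 ± 0.95 (SD, n = 3) in control and 24.0 ± 1.15 (SD, n = 3) in cKO libraries (log2 fold change -0.15, adjusted p = 0.392). Slc25a44, which carries branched-chain amino acids, and Slc25a12, an aspartate and glutamate carrier, had log2 fold changes of -0.12 and -0.10, and the most abundant, Sfxn3, had 0.08. With cKO replicate 1 left out the medians were 0.10 for the lysosomal and -0.04 for the mitochondrial carriers, Ctns had 0.30 and Slc38a7 had 0.34, and 0 of either list passed the adjusted threshold.

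The list called amino acid response here holds regulators of the integrated stress response and of its amino acid branch, in which ATF4 acts. It does not separate that branch from the rest of the stress response, and it was compared in the same way. Of 15 genes, all tested, 13 had a higher and 2 a lower mean log2 value in cKO, 0 passed the adjusted threshold and 12 were higher at an unadjusted p under 0.05, against 5.37% of all tested rows, with a median log2 fold change of 0.66. In 13 of the 15, cKO replicate 1 was the lowest cKO library and the other 2 lay above all controls, against 15% of all tested rows. Atf4 itself had an FPKM of 175.08, 171.34 and 186.85 in control and 200.41, 279.7 and 270.92 in cKO replicates 1, 2 and 3 (log2 fold change 0.48, standard error 0.13, adjusted p = 0.312 in limma). Trib3, an ATF4 target that restrains its activity, had 7.71, 6.6 and 13.37 in control and 16.68, 51.38 and 50.95 in cKO replicates, or 1.89 on the log2 scale (standard error 0.45, adjusted p = 0.312). Atf5, a related transcription factor, and Asns, the asparagine synthetase, had log2 fold changes of 0.90 and 0.66 (both adjusted p = 0.312). Without cKO replicate 1, 9 of the 15 passed the adjusted threshold, all higher, against 1.37% of all tested rows, among them Atf4 (adjusted p = 0.0199), Trib3 (adjusted p = 0.0184) and Asns (adjusted p = 0.0462), while Atf5 had an adjusted p of 0.0522.

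Genes of glutathione synthesis and of amino acid sensing were also compared, and cKO replicate 1 was the lowest cKO library in 4 of the 11 and 6 of the 22 tested. With the other 2 cKO libraries above all controls as well, the counts were 4 of 11 and 3 of 22, against 15% of all tested rows. Of 11 NRF2 and glutathione genes, which lie downstream of the cystine taken up through xCT or share its known regulator NRF2, 0 passed the adjusted threshold, with a median log2 fold change of 0.01. At an unadjusted p under 0.05 1 was higher and 1 lower, against 5.37% and 7.76% of all tested rows. The higher one was Hmox1, heme oxygenase 1 (log2 fold change 0.22, standard error 0.09, adjusted p = 0.354 in limma), and the lower one Gss, glutathione synthetase (-0.32, standard error 0.12, adjusted p = 0.338). Nfe2l2, which encodes NRF2, had a log2 fold change of 0.16 (adjusted p = 0.414), and both Hmox1 and Nfe2l2 were among the 4. The most abundant gene, Gpx4, had -0.02 (adjusted p = 0.93). Of 23 genes through which mTORC1 senses amino acids 22 were tested, with a median log2 fold change of -0.04. Of the 22, 1 was lower at an unadjusted p under 0.05, against 7.76% of all tested rows. That gene was Sesn3, which encodes a sestrin that restrains mTORC1, at 30.7, 31.95 and 32.18 in control and 25.24, 23.28 and 22.55 in cKO replicates 1, 2 and 3 (log2 fold change -0.40, standard error 0.07, adjusted p = 0.312). All 3 cKO values of Sesn3 lay below all controls, as in 11.8% of all tested rows. Without cKO replicate 1 its log2 fold change was -0.45 (adjusted p = 0.0322). The medians of the NRF2 and sensing lists were 0.01 and -0.06 without that library. Sesn3 alone of both lists passed the adjusted threshold there, against 334 of all 11522 rows tested, in either direction. Castor1, an arginine sensor, and its homologue Castor2 had log2 fold changes of -0.18 (adjusted p = 0.414) and -0.22 (adjusted p = 0.428), and Lamtor2, the most abundant of the list, had -0.02 (adjusted p = 0.961).

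**Figure D5:**
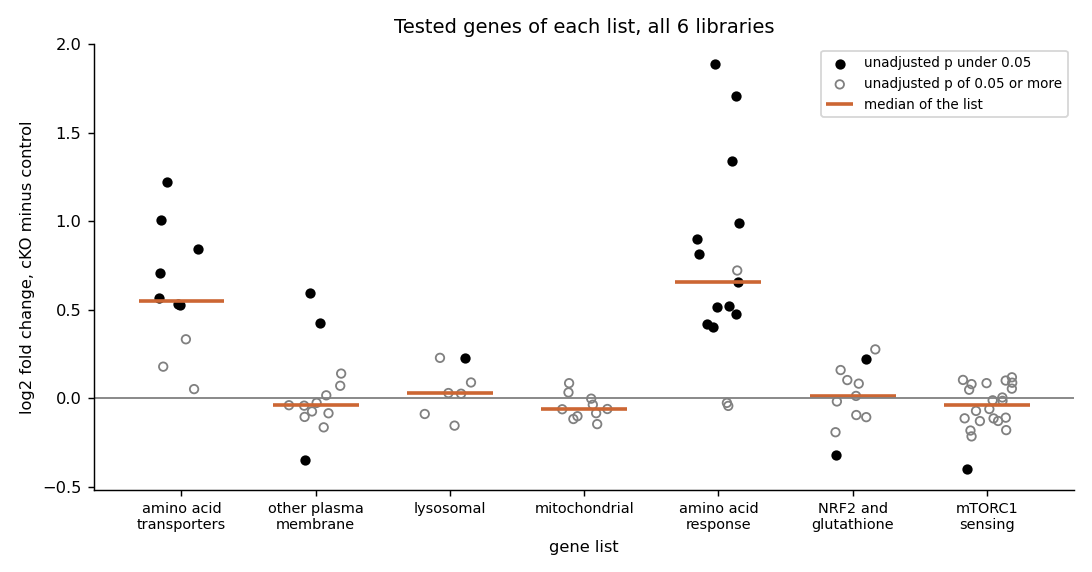
Log2 fold change (cKO minus control, all 6 libraries) of every tested gene of the 10 transporters and of the 6 lists set beside them, with filled points for an unadjusted p under 0.05 and an orange line at the list median. The medians of the transporters (0.55) and of the amino acid response list, which holds regulators of the integrated stress response (0.66), lie above 0. Those of the other 5 lists lie between -0.06 and 0.03, and no gene shown passed the adjusted threshold.

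Markers of other cells were compared across the same libraries, and their counts stand against 5.37% of all tested rows higher and 7.76% lower at an unadjusted p under 0.05, and 6.51% not overlapping with cKO higher. Of the epithelial keratins and junction genes, 3 of 3 tested were higher at an unadjusted p under 0.05 and 0 at the adjusted threshold, with or without cKO replicate 1, and the 6 markers summed to an FPKM of 0.46, 3.61 and 13.4 in control and 42.7, 36.9 and 18.2 in cKO replicates 1, 2 and 3. Krt18, the most abundant, had 0.23, 1.41 and 6.24 in the controls and 21.91, 17 and 8.1 in cKO replicates 1, 2 and 3. In 0 of these 3 was cKO replicate 1 the lowest cKO library, whereas it was in 5 of 6 tested macrophage, 5 of 5 muscle and 4 of 4 cartilage markers, against 37.2% of all tested rows. With cKO replicates 2 and 3 above all controls as well, these counts were 2, 2 and 3. Adipocyte markers summed to 16.8, 22.4 and 25.5 in control and 53.2, 89.6 and 57.2 in cKO replicates, mostly Fabp4, a fatty acid binding protein, while Plin1 and Cidec, which coat fat droplets, stayed at or below 0.1. Both adipocyte markers tested were higher at an unadjusted p under 0.05 with groups that did not overlap, Fabp4 by 1.68 and Pparg by 0.35 on the log2 scale, and Fabp4 had an adjusted p of 0.312, or 0.0314 without cKO replicate 1. Macrophage and osteoclast markers summed to 384, 316 and 410 in control and 327, 373 and 374 in cKO replicates, mostly Ctsk, with Ptprc, the pan-leukocyte gene, at or below 0.18. Muscle markers, led by Mylpf, summed to 50.7, 41.9 and 81.9 in control and 46.7, 68.7 and 58.8 in cKO replicates, and 0 of the 5 tested passed an unadjusted p of 0.05. Cartilage markers, led by Col2a1, summed to 142, 152 and 89.6 in control and 130, 163 and 152 in cKO replicates. Of 4 tested cartilage markers 2 were higher at an unadjusted p under 0.05. Endothelial markers, led by Cdh5, summed to at most 3.87 and neural markers, led by Tubb3, to at most 19.8. Of 2 tested neural markers 1 was higher at an unadjusted p under 0.05, by 0.49 on the log2 scale, while Tubb3 had 0.09. Of the 6 macrophage markers and the 1 endothelial marker tested, 0 passed an unadjusted p of 0.05. Beside the 3 lineage markers above, 2 of 3 tested mature osteoblast markers were lower at an unadjusted p under 0.05, Ibsp and Bglap, with log2 fold changes of -1.27 and -1.15, while Spp1, the most abundant, had 0.12. The part of these cells in the transporter values was not tested.

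Y-linked genes, which mark cells of male mice, were read in libraries of both groups. The 4 Y-linked genes summed to 54.7 in control replicate 3, 52.8 in cKO replicate 1 and 49.6 in cKO replicate 3, and to at most 0.29 in the other 3 libraries. The libraries of a group thus did not all come from the same mouse, and the sexes were not balanced between the groups. Control replicate 3 and cKO replicate 1, side by side in the transporters, both held male cells. So did cKO replicate 3, which lay apart from them. Adding Y-linked expression to the fit gave the transporters a median log2 fold change of 0.60, and 5 of the 10 were higher at an unadjusted p under 0.05, against 4.89% of all tested rows.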

How the data were processed

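Reads of 150 bp paired ends from poly(A) RNA were mapped by the authors to the mouse transcriptome with HISAT2, and GRCm38 and DESeq are named in the submitters' processing notes. The authors deposited FPKM values rounded to 2 decimals, with 0 further columns of samples. The annotation and the program behind FPKM are not given in the sources used here. FPKM holds no read counts, so no counting error is known. Rows near 0 gave relative depths of 1 to 1.06 against control replicate 1, from 10 to 17 rows. Only rows whose ratio already lay near 1 were kept for this, so it cannot show whether the depths were equal.

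Here log2(FPKM + 1) was compared with limma 3.58.1 in R 4.3.3 (lmFit, eBayes, Benjamini-Hochberg) over the 11590 of 17001 rows in which 3 or more libraries reached an FPKM of 1. Fold changes on this scale understate those of low genes. The fit was also run on simulated data with values independent between genes. Such data hold no shift shared by the genes of 1 library, so they do not show how the fit behaves with such a shift. The 10 members, the gene lists, the filter and the motifs were chosen with earlier results of these data known. Named are all 10 members, Nell2, the 3 smallest p and the most abundant gene of each carrier or pathway list, and the most abundant marker. Ptprc, Plin1, Cidec, Pparg, Sp7, Alpl, Msx2, Dlx5, Ibsp, Bglap and Slc7a6 were named after their values were seen. Alternatives changed filter, pseudocount, variance trend, scaling, replicate block, a Y-linked covariate and the libraries used. Figures were drawn with matplotlib 3.10.9.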

Additional observations from a re-analysis of the deposited data

How the results depend on the processing

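All 10 transporters kept a positive log2 fold change under every alternative in which they were tested. The number with an adjusted p under 0.05 was 0 with all 6 libraries under each alternative, and 0 to 6 with 1 library left out. The 6 came without cKO replicate 1, and 5 when the rows of the 6-library filter were kept as well, an alternative chosen after seeing the data. Over all rows the adjusted calls numbered 0 with all 6 libraries, 0 to 334 with 1 library left out (2 without control replicate 3, 334 without cKO replicate 1) and 324 with those rows kept. The number of transporters with an unadjusted p under 0.05 was 7, between 5 and 9 with all 6 libraries, and 4 to 9 with 1 left out, 9 without cKO replicate 1. With all 6 libraries, 567 to 745 of the 11590 rows of the main filter were higher at this threshold. The other filters gave 819 of 17001 and 588 of 11028. With 1 library left out, 372 of 11534 rows (without control replicate 1) to 1072 of 11522 (without cKO replicate 1) were higher. The median log2 fold change of the transporters ran from 0.47 to 0.75. Slc7a11 was not tested when control replicate 2, cKO replicate 2 or cKO replicate 3 was left out, or when every library had to reach an FPKM of 1.

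The deviations of same-numbered libraries from their group means had correlations of 0.03, -0.17 and 0.21 for replicates 1, 2 and 3. For differently numbered pairs they ran from -0.27 to 0.28. Values centred on 3 libraries cannot show whether same-numbered libraries were paired, and the labels do not say. With the replicate block, 0 transporters passed the adjusted threshold, as did 0 of all rows. At the unadjusted threshold 8 transporters were higher, against 684 of all 11590 rows. Without counts the precision of low values such as those of Slc7a11 is unknown, and 3 libraries a group limit every comparison.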
